A study of Mus musculus with 16 samples.

Results

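*Prss28*, *Prss29* and *Spink4* are 3 of the 17362 genes listed for the pituitary, and all 3 were among the 14345 genes that passed a filter on low values (a mean of at least 1 unit over the 16 mice), which they did through the mice where they were high. The members were chosen by their values in this table, as both proteases of 1 chromosomal locus and an inhibitor of serine proteases that were high in mutants over all 4 groups. Both comparisons between genotypes are therefore described here without a test of these genes. Bulk RNA-seq was made from the pituitary glands of 16 female mice of a mixed background at 27 weeks of age, with 1 library per mouse and 4 mice in each of 4 groups. Control females were *Esr1 fl/fl*, and mutant females were *Esr1 Nkx2.1-cre*, which carry the same floxed *Esr1* alleles and lose the receptor in cells with a history of *Nkx2-1* promoter activity. Each genotype was fed either standard diet (SD, chow) or a high-fat diet (HFD) for 17 weeks. In the gland itself *Nkx2-1* is known from the posterior lobe, and the whole gland was sampled.

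*Prss28* and *Prss29* encode the implantation serine proteinases, secreted trypsin-like enzymes best known from the glands of the uterus around the time an embryo implants. They lie in the cluster of tryptase genes that also holds the mast cell tryptases. *Spink4* encodes a small secreted inhibitor of the Kazal type, a family that blocks trypsin-like enzymes by sitting in their active site, and it is best known from the mucus-secreting goblet cells of the intestine. None of these genes is a usual marker of an endocrine cell of the pituitary.

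In the GENCODE M21 annotation of GRCm38, *Prss28* (ENSMUSG00000024171) lies at chr17:25308646-25311876 and *Prss29* (ENSMUSG00000034039) at chr17:25318654-25322684, both on the plus strand with a gap of 6777 bp between them. Each has 6 exons, and 3 internal exons measure 61, 181 and 266 bp in both genes. *Spink4* (ENSMUSG00000028415) lies on another chromosome, at chr4:40920052-40931395 on the plus strand, with 4 exons in a transcript of 397 bp. The coding sequences of *Prss28* (825 bp) and *Prss29* (840 bp) share 68.3% of their bases when aligned end to end. Their longest identical coding stretch is the following 26 bases, which begin at coding base 118 in both genes and are shown because they set how far reads of the pair could be confused.

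Shared coding stretch: gggaagtggccatggcaggtcagcct

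No word of 31 bases was shared between the transcripts of *Prss28* and *Prss29*, so their values were separable by sequence. The only other annotated gene that held such words was an unprocessed pseudogene at chr17:25330692-25332675, which carried 3.90% of the words of *Prss29* and 0.506% of those of *Prss28*. None of the words of *Spink4* occurred in another gene.

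The 250 bases before the start of *Prss28* (RefSeq, GRCm38.p6, chr17:25308396-25308645, plus strand) and of *Prss29* (chr17:25318404-25318653, plus strand) are shown because these neighbours moved together. Capitals mark every run of at least 12 bases that is identical in both.

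*Prss28*: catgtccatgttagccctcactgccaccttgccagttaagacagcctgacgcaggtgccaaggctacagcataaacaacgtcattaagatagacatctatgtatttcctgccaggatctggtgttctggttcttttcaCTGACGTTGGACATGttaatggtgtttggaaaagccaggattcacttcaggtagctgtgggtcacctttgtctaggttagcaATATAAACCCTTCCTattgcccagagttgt
*Prss29*: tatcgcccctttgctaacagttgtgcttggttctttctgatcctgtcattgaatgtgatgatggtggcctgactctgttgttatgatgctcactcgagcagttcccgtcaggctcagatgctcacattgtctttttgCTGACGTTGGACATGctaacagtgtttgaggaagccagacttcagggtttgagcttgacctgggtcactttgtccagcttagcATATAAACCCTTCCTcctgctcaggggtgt

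Both windows held a run of 15 bases that ends 98 bases before the start in *Prss28* and 99 bases before it in *Prss29*, and a second run of 15 bases with a TATA box (TATAAA) at the same distance, 16 to 30 bases before the start. Each run was found, on either strand, in 2 of 32817 promoter windows of this length, which are these 2. The windows were 69.2% identical when aligned, against 59.6% for *Prss28* and 56.8% for *Prss29* when aligned with *Prss34*, the next gene upstream. The single oestrogen receptor site GGTCA, searched on both strands, occurred 1 time before *Prss28* and 2 times before *Prss29*, and 35.2% of all windows held it. The palindrome GGTCANNNTGACC was in neither window and in 0.0640% of all windows. TATAAA was in 12.4% of all windows, on either strand. The single cAMP response site TGACG was found 3 times before *Prss28* and 2 times before *Prss29*, with 1 of these inside the shared run of each, and it was in 17.7% of all windows.

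The deposited values are a normalized signal per gene, summing to between 908897 and 1335782 per mouse, and the read depth is not given. In 1457 genes with 1 transcript, low values fell on whole multiples of a step (within 0.15 of a whole number for 81.3% to 93.8% of low values, depending on the mouse), by which 1 read was worth between 0.0446 and 0.0684 units per kilobase. By that step the members rested on about 274 to 1264 reads (*Prss28*), 1342 to 5021 reads (*Prss29*) and 18 to 82 reads (*Spink4*) in each mutant. One library stood apart before any comparison of the members. Control P392, on HFD, carried all 3 genes at the level of the mutants, and each result on HFD is therefore given with and without it. Its *Esr1* value was 39.6, inside the range of the controls (23.6 to 46.6) and above that of the mutants (10.02 to 33.4), although those ranges overlap.

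*Prss28* was close to absent in 7 of 8 controls and present in every mutant. In controls on SD its value was 0.178 in P356, 0.0562 in P383 and 0 in P358 and P359. In controls on HFD it was 0 in P385 and P390, 0.0621 in P391 and 59.1 in P392. Apart from P392, the control values stand for at most about 3 reads per library. In mutants on SD it was 20.1 in P357, 18.1 in P381, 18.7 in P382 and 21.5 in P384, a narrow band with a coefficient of variation of 7.67%. In mutants on HFD it was 37.3 in P339, 46.8 in P341, 63.3 in P387 and 21.8 in P388. Every HFD mutant was above every SD mutant, and P392 was below only P387.

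*Prss29* separated the genotypes in the same way at a higher level. In controls on SD its value was 2.71 in P356, 0.456 in P358 and 0 in P359 and P383. In controls on HFD it was 0.731 in P385, 0.140 in P390, 0.378 in P391 and 370 in P392. P356 was the highest of the controls after P392, at about 45 reads. In mutants on SD it was 91.8 in P357, 121.7 in P381, 93.4 in P382 and 155.7 in P384. In mutants on HFD it was 340.7 in P339, 284.5 in P341, 205.4 in P387 and 137.7 in P388. P392 had the highest value of all 16 mice, and the diets overlapped in mutants only through P388 and P384. The mean in HFD mutants, 242 ± 89.0 units (SD, n = 4), exceeded the group mean of 98.3% of the genes listed.

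*Spink4* separated the genotypes at a lower level and with more spread. In controls on SD its value was 2.49 in P356, 1.81 in P383 and 0 in P358 and P359. In controls on HFD it was 0.867 in P385, 0.561 in P390, 0.435 in P391 and 11.1 in P392. Its short transcript makes these control values worth at most about 6 reads, P392 aside. In mutants on SD it was 43.0 in P357, 19.6 in P381, 9.97 in P382 and 14.9 in P384. In mutants on HFD it was 9.59 in P339, 10.4 in P341, 12.6 in P387 and 14.3 in P388. The lowest mutant was above every control but P392, and P392 lay inside the range of the HFD mutants.

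**Figure D1:**
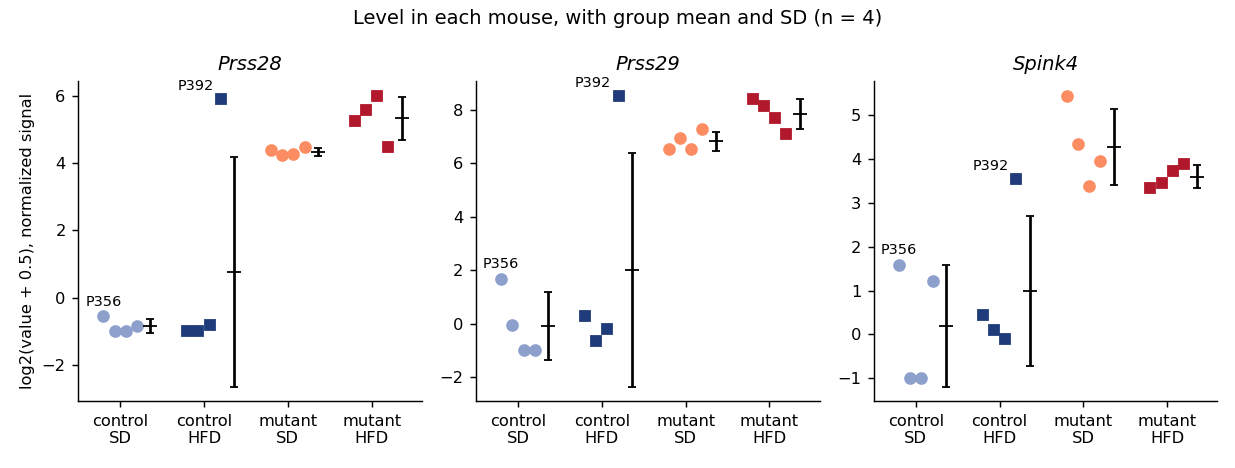
Level of each gene on the log2(value + 0.5) scale in every mouse, by genotype and diet, with the mean and SD of each group of 4 in black. In all 3 panels the HFD control P392 lies among the mutants, while the other 7 controls lie below every mutant.

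On SD mutants exceeded controls by 5.18 (SE 1.08) for *Prss28*, 6.92 (SE 1.42) for *Prss29* and 4.08 (SE 0.74) for *Spink4* on the log2(value + 0.5) scale. These sizes depend on the added 0.5, since controls were near 0, and they understate low genes. The groups did not overlap for any of the 3, which held, with mutants higher, for 6.09% of all genes tested, and 1.84% of genes passed an adjusted p of 0.05 in this comparison. In bulk tissue, more cells that express a gene and more RNA per cell cannot be told apart.

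The HFD mice were part of the values that chose the genes, so the difference between genotypes on HFD is a description too. Mean levels were 42.3 ± 17.4 in mutants and 14.8 ± 29.5 in controls for *Prss28*, 242 ± 89.0 and 92.8 ± 185 for *Prss29*, and 11.7 ± 2.16 and 3.24 ± 5.23 for *Spink4* (SD, n = 4). The log2 differences were 4.55 (SE 1.08), 5.84 (SE 1.42) and 2.60 (SE 0.74), and the groups overlapped in each gene through P392. Of all genes tested, none passed the adjusted threshold with all mice (0% of genes tested; 1461 had an unadjusted limma p under 0.05).

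With P392 left out the differences were 6.26, 8.02 and 3.45. P392 was singled out by its values of these genes, so leaving it out fixes the separation of the groups, and no test follows from it. The 4 mutants then did not overlap the other 3 controls in any of the 3 genes, which held, with mutants higher, for 12.2% of all genes. In that fit 653 of all genes passed, 4.55% of those tested, and 3.62% passed as higher in mutants. The mean of the other 3 HFD controls was 0.416 units for *Prss29* (range 0.140 to 0.731) and 0.621 for *Spink4* (range 0.435 to 0.867). That for *Prss28* rested on about 1 read in all, so no fold is given.

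**Figure D2:**
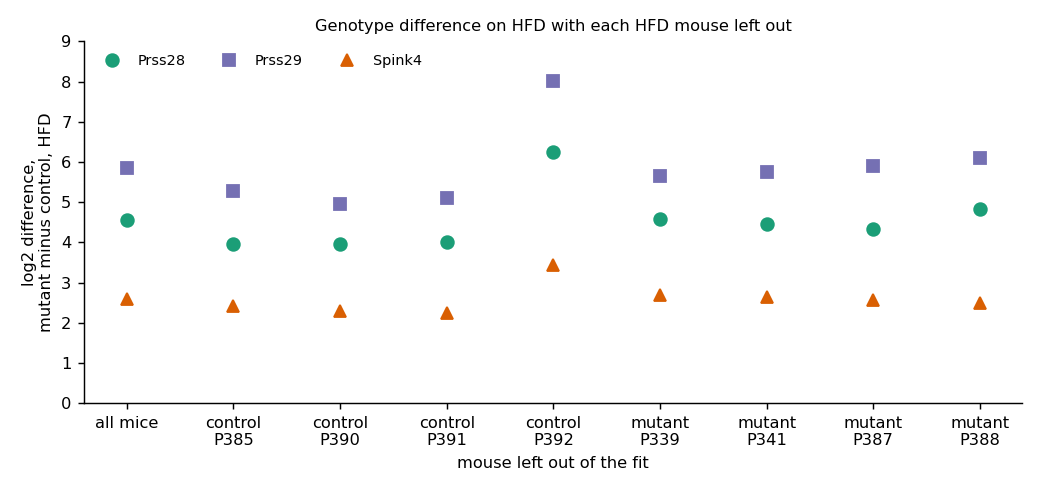
Log2 difference between mutants and controls on HFD for each gene, with all mice and with each HFD mouse left out in turn. The differences are highest without control P392, at 6.26, 8.02 and 3.45.

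The diets were compared within each genotype, in mice whose values had all been used to choose the genes. The tests of diet are therefore not independent of that choice. In mutants, *Prss28* averaged 42.3 on HFD and 19.6 ± 1.505 on SD, a ratio of 2.16, and the diets did not overlap, as in 1.88% of genes tested with HFD higher. *Prss29* averaged 242 on HFD and 116 ± 30.0 on SD, a ratio of 2.09, with overlap. *Spink4* went the other way, at 11.7 on HFD and 21.8 ± 14.6 on SD, a ratio of 0.537, with overlap. Unadjusted exact permutation p was 0.0286 for *Prss28*, 0.0571 for *Prss29* and 0.171 for *Spink4*. With 4 against 4 mice 0.0286 is the smallest value that this test can give. The log2 differences of 0.99 (SE 1.08), 1.02 (SE 1.42) and -0.68 (SE 0.74) gave limma adjusted p of 0.858, 0.889 and 0.858, and no gene passed (0%; 717 at an unadjusted p under 0.05). The spread that limma used is shared by all 16 mice, P392 included. Over 11 other settings of the fit, among them a fit of the 8 mutants alone, the limma adjusted p of these genes ran from 0.779 to 0.908.

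In controls the diet difference was that of P392. The log2 differences were 1.62 (SE 1.08), 2.10 (SE 1.42) and 0.80 (SE 0.74), each with a limma adjusted p of 0.998, and exact permutation p was 0.714, 0.514 and 0.571. Without P392 they were -0.09, -0.08 and -0.05. Again 0% of genes passed (592 at an unadjusted p under 0.05). The interaction of genotype and diet was -0.63 (SE 1.53) for *Prss28*, -1.08 (SE 2.01) for *Prss29* and -1.47 (SE 1.05) for *Spink4*, with limma adjusted p of 0.964, 0.957 and 0.924. Without P392 it was 1.08, 1.10 and -0.63 (limma adjusted p 0.926, 0.926 and 0.932), so its sign turned for *Prss28* and *Prss29*. With all mice 0% passed (602 at an unadjusted p under 0.05).

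By group mean, all 3 genes were lowest in SD controls, then in HFD controls. That order rested on P392, since without it the means of HFD controls (0.0207, 0.416 and 0.621) were below those of SD controls (0.0587, 0.792 and 1.08). *Prss28* and *Prss29* were highest in HFD mutants, and *Spink4* in SD mutants. SD and HFD controls overlapped in every gene, and HFD controls overlapped both groups of mutants in every gene through P392 alone. *Esr1* itself, the targeted gene, averaged 38.9 ± 7.32 in SD controls and 18.6 ± 5.77 in SD mutants, a log2 difference of -1.09 (SE 0.25, limma adjusted p 0.0409). On HFD it averaged 37.3 ± 9.29 in controls and 28.97 ± 5.53 in mutants (-0.34, SE 0.25, limma adjusted p 0.696).

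The ratio of *Prss29* to *Prss28* was taken in the 8 mutants and in control P392. Controls P356 and P391 also had both genes above 0 but were left out. Their *Prss28* values stood for about 3 reads and 1 read. It was 4.56 in P357, 6.71 in P381, 4.99 in P382 and 7.25 in P384, the SD mutants, with a mean of 5.88 ± 1.30 (SD, n = 4). It was 9.13 in P339, 6.08 in P341, 3.24 in P387 and 6.33 in P388, the HFD mutants, with a mean of 6.19 ± 2.40. Control P392 had a ratio of 6.26, inside both ranges. The log2 ratio differed between diets by 0.01 (two-sided exact permutation p = 1.00), so *Prss28* and *Prss29* were not distinguished by diet at this spread. The transcripts of 1190 and 1181 bp are of nearly equal length, so the ratio does not turn on scaling by length.

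**Figure D3:**
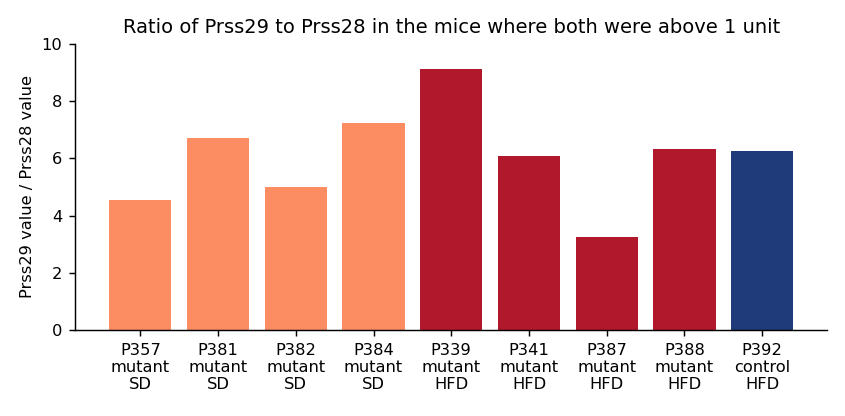
Ratio of the *Prss29* value to the *Prss28* value in the 8 mutants and in control P392, each bar 1 mouse, coloured by group. The bars run from 3.24 to 9.13, and P392 stands at 6.26.

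Relations between the genes were tested among the 8 mutants. In this family of 6 relations, *Prss28* and *Prss29* had r = 0.784 (exact permutation p = 0.0240, adjusted 0.0480) and rho = 0.786 (exact permutation p = 0.0279, adjusted 0.0838), and r was 0.936 without the 2 mice farthest from the median. The adjusted p of r passed in 1 of the 8 fits with a mutant left out. With the mean of each diet removed r was 0.454 (exact permutation p within diets = 0.464, adjusted 0.556). *Spink4* had r = -0.447 with *Prss28* (exact permutation p = 0.264, adjusted 0.264; rho = -0.452, p = 0.267, adjusted 0.267) and r = -0.433 without 2 mice. With *Prss29* it had r = -0.605 (exact permutation p = 0.0990, adjusted 0.119; rho = -0.619, p = 0.115, adjusted 0.172) and r = -0.415 without 2 mice.

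The residual *Esr1* level of the mutants was set against each gene in the same family. *Prss29* increased with it, at r = 0.794 (exact permutation p = 0.00942, adjusted 0.0480) and rho = 0.905 (exact permutation p = 0.00456, adjusted 0.0274), and r was 0.793 without 2 mice. The adjusted p of r passed in 3 of the 8 fits with a mutant left out, and with the diet means removed r was 0.586 (exact permutation p within diets = 0.108, adjusted 0.323). *Prss28* had r = 0.683 (exact permutation p = 0.0479, adjusted 0.0718), rho = 0.643 (p = 0.0962, adjusted 0.172) and r = 0.594 without 2 mice. With the diet means removed its r was 0.348 (exact permutation p within diets = 0.266, adjusted 0.427), at -0.230 in SD mutants and 0.810 in HFD mutants. *Spink4* had r = -0.863 (exact permutation p = 0.0192, adjusted 0.0480), but rho = -0.524 (p = 0.197, adjusted 0.236) and r = -0.386 without 2 mice, so that relation rested on those mice. With the diet means removed its r was -0.810 (exact permutation p within diets = 0.0729, adjusted 0.323). P357, with the lowest *Esr1* (10.02) and the highest *Spink4* (43.0), was 1 of these and also had the lowest summed level of melanotroph markers, 16.4, against 124 to 288 in controls other than P392.

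Neighbours of *Prss28* and *Prss29* were examined across the tryptase locus. Of 14 protease genes of the locus 6 had values, and *Prss41* was the only other one tested (0.67, SE 0.26, limma adjusted p 0.171). Of 28 other genes that start within 250 kb of either, 16 had values here and 12 were tested, and none passed the adjusted threshold on SD (background 1.84%). Their log2 differences ran from -0.82 to 0.76 with a median of 0.12, against -0.01 over all genes tested. The lowest difference was that of *Baiap3*, a regulator of dense-core vesicle exocytosis (-0.82, SE 0.28, limma adjusted p 0.135). *Prss34*, a mast cell and basophil protease whose gene ends 8480 bp before *Prss28*, was too low to be tested. It was 0 in all SD controls and 0.0651 ± 0.0557 in SD mutants. In HFD mutants it was 0.287 to 1.11, or about 5 to 17 reads, and P392 had 0.786 while the other HFD controls had at most about 1 read. *Tpsb2*, a mast cell tryptase 57.7 kb from *Prss28*, ranged from 0 to 1.20 over all mice.

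Around *Spink4*, 13 of 24 neighbours had values here, 11 were tested and 1 passed. This was *Bag1*, a co-chaperone of Hsp70, 28.2 kb from *Spink4*, which rose in SD mutants (0.63, SE 0.12, limma adjusted p 0.0256) from a mean of 74.2 to 114. On HFD its means were 84.2 and 110 (limma adjusted p 0.280). *Chmp5*, whose start is 28.4 kb from that of *Spink4*, differed by 0.01 (SE 0.11, limma adjusted p 0.980). The median over the tested neighbours was 0.01.

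**Figure D4:**
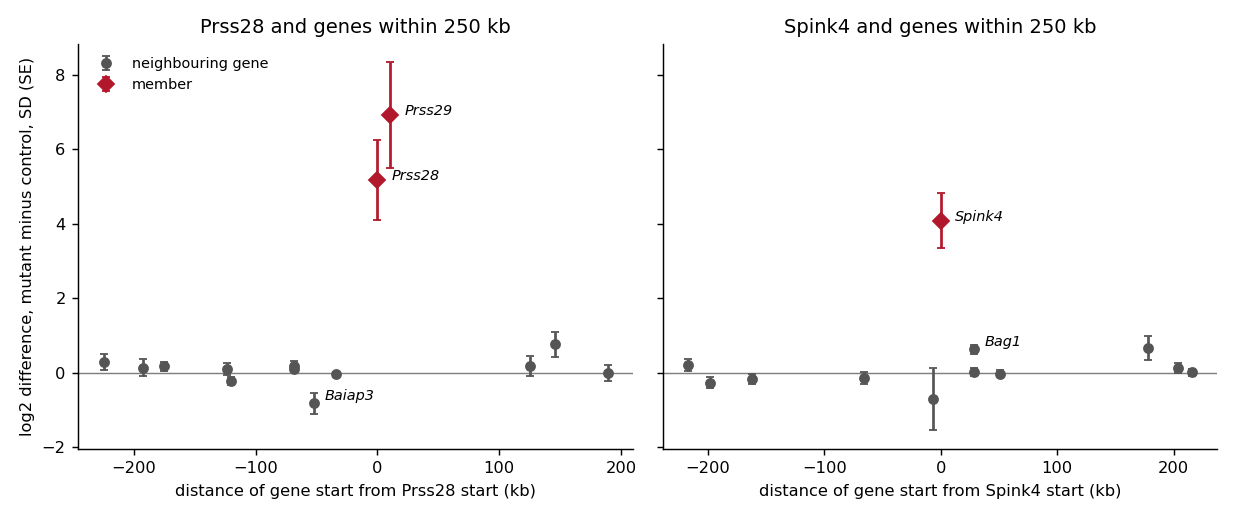
Log2 difference between mutants and controls on SD, with its SE, for the tested genes that start within 250 kb of *Prss28* (left) or *Spink4* (right), by distance between starts in kb. The members stand at 4.08 to 6.92, and every neighbour lies between -0.82 and 0.76.

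Few other proteases and inhibitors of the same families passed. Of 41 other trypsin-like protease genes looked for, 16 had values and 9 were tested, and none passed in any comparison, with a median of 0.24 on SD. *Prss23*, a widely expressed protease with the highest mean of the list, was 73.0 in P392 and 30.7 to 53.1 in mutants. Of 12 *Spink* genes 4 had values, and *Spink10* was the most abundant, with means of 23.8 in SD controls and 26.9 in SD mutants (0.23, SE 0.33, limma adjusted p 0.721). Of 33 other inhibitors 22 had values and 18 were tested, and 1 passed: *Serpinb8*, an intracellular inhibitor of furin-like enzymes, fell in SD mutants by 1.10 on the log2 scale (SE 0.22, limma adjusted p 0.0283), from a mean of 8.62 to 3.59. *Spint2*, a membrane-bound inhibitor of trypsin-like enzymes and the most abundant of that list, had means of 370 and 404 (0.11, SE 0.11, limma adjusted p 0.568).

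Markers of the tissues that these genes are known from were examined next. Of 18 uterine gland genes 14 had values and 9 were tested. *Areg*, the EGF receptor ligand amphiregulin, was the 1 that passed (2.96, SE 0.59, limma adjusted p 0.0264), with means of 0.460 in SD controls and 5.73 in SD mutants and 4.07 in P392. The list had a median of 0.55 on SD. *Wfdc2*, *Lcn2* and *Msx1*, its most abundant genes, did not pass (limma adjusted p 0.670, 0.390 and 0.266). Of 15 goblet cell genes 4 had values (*Agr2*, *Clca1*, *Galnt12* and *Fcgbp*), and the goblet mucin genes looked for had none. *Agr2*, a chaperone of mucin folding, averaged 1.35 in SD controls and 5.30 in SD mutants (1.74, SE 0.80, limma adjusted p 0.243), and it was 13.2 in P392. *Galnt12*, which starts mucin-type sugar chains, averaged 6.77 and 4.60 (-0.52, SE 0.27, limma adjusted p 0.294), and *Fcgbp*, a mucus protein too low to be tested, averaged 0.653 and 0.283. *Clca1* was at most 0.381 in any mouse. Of 10 mast cell genes 4 had values: *Kit*, *Gata2*, *Hdc* and *Tpsb2*. Their summed level was 25.0 to 36.9 in mutants, 28.6 to 51.1 in controls other than P392 and 25.8 in P392. By group mean *Gata2* gave the most to this sum. *Gata2* and *Hdc* were lower in SD mutants than in SD controls (16.7 against 25.4 and 8.47 against 11.6). *Kit* was higher (5.98 against 4.51) and *Tpsb2* was at most 1.20 in any mouse, so the sum mixes genes that moved in opposite ways. None of the 3 tested passed.

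The pituitary identity of the samples was clear in all groups, since the 7 anterior hormone genes summed to 364649 to 605061 units per mouse. None of the 6 endothelial genes passed in any comparison (on SD the limma adjusted p ran from 0.0696 to 0.396). Their summed level, to which *Plvap* gave the most, was 157 to 212 in mutants, 201 in P392 and 99.6 to 128 in the other controls. The share of all genes that separate these mice over both diets was not counted. On HFD without P392, mutants were above the other controls with no overlap in 12.2% of all genes tested. Summed immune markers were 69.5 to 182 in mutants, 123 in P392 and 36.5 to 72.1 in the other controls. Summed stem and folliculostellate markers were 164 to 233 in mutants, 227 in P392 and 118 to 218 in the other controls, and summed erythroid markers 1291 to 4662, 1218 and 581 to 3252. Of 6 posterior lobe genes 1 passed on SD, *Col25a1*, a membrane collagen, which rose in mutants (1.00, limma adjusted p 0.0321). The median of that list was -0.36, and *Gfap* (-1.11), *Rax* (-1.11), *Nkx2-1* (-0.64), *Slc1a3* (-0.08) and *Lhx2* (0.02) did not pass (limma adjusted p 0.190 to 0.988). Summed melanotroph markers were 52.3 in P392, 16.4 to 251 in mutants and 124 to 288 in the other controls. The sum mixes genes that differed. *Gpr83*, too low to be tested, was at most 0.241 in mutants and 0.190 in P392. Its means were 1.68 in SD controls and 1.58 in HFD controls. *Pcsk2*, *Pax7*, *Esm1* and *Oacyl* had higher means in HFD mutants than in HFD controls, and none passed. Only markers with values here could be counted, and none of those was at 0 in 8 or more mice. The part of these markers in the results was not tested.

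The genes most like each member over the 16 mice were ranked by Pearson r of the log2 values. *Prss29* was the gene most like *Prss28* (r = 0.987), ahead of every other gene tested. For *Prss29*, *Slc16a12* (r = 0.990) came ahead of *Prss28*. *Spink4* had r = 0.896 with *Prss28* and 0.905 with *Prss29*, and 193 and 185 other genes were more like those. The points lie in 2 clusters, near 0 and high, so these r mostly measure that separation.

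Nearest to *Prss28* were *Cacng2*, an auxiliary subunit of glutamate receptors (r = 0.985), *Peli2*, a ubiquitin ligase (0.983), *Slc16a12*, a transporter (0.982), *Ly6a*, a surface antigen (0.980), and *Emilin2*, a matrix glycoprotein (0.979). Nearest to *Prss29* were *Slc16a12* (0.990), the sterol transporter subunit *Abcg8* (0.986), *Papss2*, which makes the sulphate donor (0.984), the kinase *Tnni3k* (0.983) and *Cacng2* (0.982). Nearest to *Spink4* were *Olfm2* (0.961), the ribosomal protein gene *Rps7* (0.947), *Slco5a1* (0.946), the stress kinase *Mapk11* (0.944) and *Arhgap40* (0.943). In each of these genes P392 was above every other control and at or above the lowest mutant, which follows from choosing them by r over all 16 mice. *Slc16a12* was 0.340 in SD controls, 4.09 in SD mutants and 5.68 in P392, and *Ly6a* was 26.2, 200 and 439. *Rps7* was 53.1 in SD controls and 380 in SD mutants, and since ribosomal protein genes have near-identical copies, its value is uncertain.

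P356 and P392, the controls with the most *Prss29*, were also those with the most *Gal*, the neuropeptide gene for galanin that oestrogen induces in lactotrophs. *Gal* was 1294 in P356 and 2548 in P392, against 94.7 to 652 in the other controls and 1819 to 3910 in mutants, and it rose in SD mutants (3.16, SE 0.70, limma adjusted p 0.0363). In P356 the *Gal* value approached that of the mutants, while *Prss28* was 0.178 and *Prss29* 2.71.

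**Figure D5:**
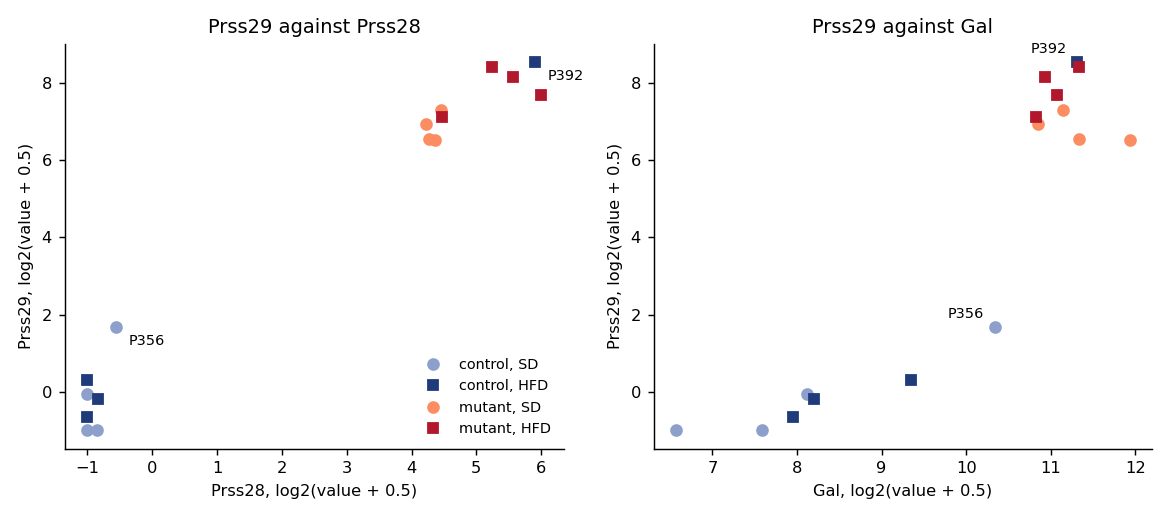
*Prss29* against *Prss28* (left) and against *Gal* (right) in each of the 16 mice, both axes as log2(value + 0.5), coloured by genotype and diet. P392 lies with the mutants in both panels, and P356 is closer to the mutants in *Gal* than in *Prss29*.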

How the data were processed

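Per the labels, pituitary libraries from 16 female mice were prepared with a NEBNext Ultra II kit, and the authors aligned reads to the mouse transcriptome (mm10) with Kallisto and tested genes with Sleuth. Their versions, the annotation release and strandedness are not given in the sources used here. The authors deposited 1 normalized signal per gene and mouse, whose low values look like transcript abundances scaled per library. A pseudocount of 0.5 was added before taking log2, genes averaging at least 1 unit were kept, and limma 3.58.1 (R 4.3.3; 4 group means, all mice, trended prior, Benjamini-Hochberg threshold of 0.05) was applied. *Prss28*, *Prss29* and *Spink4* were also compared between diets by two-sided exact permutation tests (6, and 1 for the ratio, unadjusted). Tests of these genes between genotypes, HFD included, are not given, since their values in all mice chose them. p-values measure the spread between these mice. The search for the value of 1 read was adjusted after its first form chose too small a step in 1 library. On simulated data made from 14345 genes for the HFD comparison, 65.5% of genes changed by 1 (log2) and 95% of genes changed by 2 were recovered. The 200 changed genes were drawn at random, and every gene was simulated independently at its own spread. No simulated mouse shifted many genes together, as P392 did, so these rates do not give the power for the members. Members and gene lists were chosen with earlier results of these data known. Named genes were the members, *Esr1*, the 5 most alike genes of each member, neighbours within 250 kb and, in each list, genes that passed or were most abundant. *Baiap3*, *Chmp5*, *Prss34* and *Agr2* were singled out after their values were seen. Alternatives were other filters, pseudocounts, scalings, mice and thresholds. Python 3.11.15 was used for figures and sequences.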

Additional observations from a re-analysis of the deposited data

Results flagged for a closer look

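A mouse far from the other 3 of its group was searched for in 18 sets of 4 values (the 3 genes and *Esr1* in each group, and the ratio of *Prss29* to *Prss28* in mutants). Such a mouse was found in 5 sets, and it was P392, P385 or P357. Chance alone gives about 1 in 20 per set, but the sets share mice, so the count cannot be weighed against that rate. Control P392 on HFD was far above the other 3 in *Prss28* (59.1), *Prss29* (370) and *Spink4* (11.1), and these are 3 readings of 1 library. HFD control P385 was far below the others in *Esr1* (23.6), and its *Prss29* value was 0.731. SD mutant P357 was far below the others in *Esr1* (10.02), and its *Spink4* value of 43.0 was the highest of all mice.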

How the results depend on the processing

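No paired analysis was possible because the labels give no replicate numbers shared between groups. On SD the log2 difference with a pseudocount of 0.1 was 7.09 for *Prss28* and 8.32 for *Prss29*, and with 1 it was 4.28 for *Prss28*. Leaving out each mouse gave 5.13 to 5.28 for *Prss28*, 6.62 to 7.51 for *Prss29* and 3.68 to 4.54 for *Spink4*. Genes called on SD numbered 264, 151 with a filter at 5, 20 at 0.01, and 33 to 826 with a mouse left out (33 without P382, 826 without P356). With a mouse left out *Bag1* passed in 10, *Areg* in 9, *Serpinb8* in 9, *Esr1* in 6 and *Gal* in 5 of 16 fits.

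On HFD 0 genes were called, 1 with a filter at 0.1, with no filter and without trend, and 0 to 653 with a mouse left out. The ranges were 3.96 to 6.26 for *Prss28*, 4.96 to 8.02 for *Prss29* and 2.24 to 3.45 for *Spink4*, with the highest without P392. In fits added after seeing the data, without P357 and P392, 961 genes were called on SD, 1064 on HFD and 1 for diet in controls, and without P356 and P392, 1366 and 784. In both, the members on HFD were at 6.26, 8.02 and 3.45.

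For diet in mutants 0 genes were called, 2 with only the 8 mice, and 0 to 1 with a mouse left out. The ranges were 0.77 to 1.27, 0.82 to 1.26 and -0.97 to -0.29. For diet in controls (0 to 6 genes) they were -0.09 to 2.21, -0.08 to 2.98 and -0.05 to 1.26, all lowest without P392, with the same values without P357 and P392. For the interaction (0 to 1 genes) they were -1.21 to 1.08, -1.96 to 1.10 and -1.94 to -0.63. The sign turned for *Prss28* (1.10 and 0.99) and *Prss29* (1.00 and 0.51) without P357 and P392 and without P356 and P392. No adjusted p passed for these.

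In mutants with 1 left out, r was 0.727 to 0.914 (*Prss28* and *Prss29*), -0.619 to -0.373 (*Prss28* and *Spink4*), -0.885 to -0.466 (*Prss29* and *Spink4*), and with *Esr1* 0.608 to 0.905, 0.750 to 0.865 and -0.949 to -0.453. The adjusted p for *Prss28* and *Prss29* passed in 1 of these 8 fits. With the diet means removed, a setting added after seeing the data, r for *Prss28* and *Prss29* (0.454), *Prss29* and *Esr1* (0.586) and *Spink4* and *Esr1* (-0.810) no longer passed. The log2 ratio between diets was -0.21 to 0.29. By Spearman rho 0, 0 and 1 of the 5 most alike genes recurred, and without P357 and P392 it was 4, 2 and 0. *Spink4* rests on the fewest reads, and its low values carry the most counting error.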

Other observations

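*Prss28*, *Prss29* and *Spink4* were set against 4 genes that oestrogen is known to raise in the pituitary or uterus (*Gal*, *Pgr*, *Greb1* and *Prl*) in the 8 mutants. These 12 relations were chosen after the data had been seen, and p-values were adjusted over 24 that included the controls. No r is given over the controls, since P392 stands apart from the other 7 in all 3 genes. By rho over all controls, *Prss29* ranked with *Gal* (0.970, exact permutation p = 0.000595, adjusted 0.00714). *Spink4* ranked with *Pgr* (0.886, exact permutation p = 0.00605, adjusted 0.0484), and no other rho passed in controls. P392 aside, these ranks rest on at most about 45 reads of *Prss29* and 6 reads of *Spink4* per library.

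In mutants *Prss29* ranked with *Pgr*, the progesterone receptor gene (rho = 0.976, exact permutation p = 0.000397, adjusted 0.00714), with r = 0.787 (exact permutation p = 0.0124, adjusted 0.0593) and r = 0.655 without 2 mice. *Spink4* went the other way with *Pgr* (r = -0.837, exact permutation p = 0.0217, adjusted 0.0650; rho = -0.595, p = 0.132, adjusted 0.353), and r was -0.0968 without 2 mice, so that value rested on those mice. *Prss28* had r = 0.625 with *Pgr* (exact permutation p = 0.0990, adjusted 0.158; rho = 0.810, p = 0.0218, adjusted 0.103). With the diet means removed these r were 0.605, -0.767 and 0.268 (exact permutation p within diets = 0.118, 0.0781 and 0.523). No relation with *Gal*, *Greb1* or *Prl* in mutants passed by r or rho. With *Gal*, *Prss29* had r = -0.336 (exact permutation p = 0.431, adjusted 0.545; rho = -0.286, p = 0.501, adjusted 0.801).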
